A study of Mus musculus with 4 samples.

Results

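The voltage-gated, potassium and chloride channel genes were described across 4 samples of sorted mouse intestinal cells, with 1 array for each sample. A gene belonged to the set when its current symbol started with Kcn, Cacna, Cacnb, Cacng or Clcn, or with Scn followed by a digit, whatever its signal. Of the 16390 named genes on the array, 114 met this rule, out of 143 protein-coding genes that carry such symbols in the RefSeq annotation. Each of the 114 was read by a single probe. Of these, 2 were listed on the array under older names: Cacna2d4 as 5730412N02Rik and Kcnk10 as 1700024D23Rik.

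These genes encode the pores and the helper subunits through which potassium, sodium, calcium and chloride cross the membrane. Potassium channels hold the membrane voltage negative, which in intestinal epithelium keeps up the driving force for chloride secretion and for electrogenic uptake of nutrients. Voltage-gated sodium and calcium channels open when the membrane depolarises, and calcium-activated potassium channels then restore the voltage. Dclk1, a microtubule-associated kinase, marks tuft cells in the intestine. Tuft cells are chemosensory cells in which a taste-receptor pathway releases calcium and opens the cation channel Trpm5, which depolarises the membrane.

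Dclk1+ and Dclk1- cells were taken from normal small intestinal epithelium and from intestinal tumors. All mice were male and heterozygous for Dclk1CreERT2, an allele that places a tamoxifen-inducible Cre recombinase at the Dclk1 locus, and the mice with tumors also carried ApcMin/+, which truncates the tumor suppressor Apc. The Dclk1- tumor sample (Dclk1CreERT2/+; ApcMin/+) came from 1 mouse aged 17 weeks, and the Dclk1+ tumor sample (the same genotype) was pooled from 7 mice older than 16 weeks. The Dclk1- normal sample (Dclk1CreERT2/+) came from 1 mouse aged 26 weeks, and the Dclk1+ normal sample (the same genotype) was pooled from 2 mice aged 26 weeks. Per the labels' protocols, Dclk1+ tumor cells were sorted for GFP. For the source of the GFP, the gates of the other sorts and any tamoxifen treatment, the sources used here give nothing. With 1 array in each group there was no replicate and no test, so every difference is between 2 arrays and its error is unknown. Tumor and normal samples differed in genotype, age and number of mice, and the parts of these cannot be told apart. Dclk1+ and Dclk1- samples also differed in number of mice, 7 against 1 in tumor and 2 against 1 in normal. In tumor their ages were given as older than 16 weeks and as 17 weeks. These parts cannot be told apart from that of the sort.

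Levels are given as the normalised intensities of the authors' deposited table, which are on a linear scale with the median of the listed probes at 25 on each array. Probes differ in how strongly they bind, so levels of different genes have no order here, and sums over marker lists serve only to set arrays side by side. A probe without an entry on an array is called not listed there. The lowest listed value was 2.05 to 2.30, depending on the array. Differences are log2 differences between 2 arrays after background correction and quantile normalization of the spot intensities. An offset of 50 in that correction made differences of dim probes smaller, so the ratio of the deposited intensities is given beside the log2 difference. Each array has its own factor in the deposited table, which puts the median log2 difference over all genes at 0.35 in tumor and 0.27 in normal epithelium for Dclk1+ over Dclk1- cells, and at -0.40 and -0.50 between tumor and normal in Dclk1+ and Dclk1- cells, so the log2 differences decide the counts. A probe was above background when its spot exceeded the mean of the blank spots plus 2 SD, and a gene was counted as different from a 2-fold change (a log2 difference of 1) in either direction.

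The sorted samples were checked against marker genes of tuft cells. Of 20 tuft cell genes, 18 were on the array, and their summed intensity in the tumor sorts was 674 (Dclk1-) and 20523 (Dclk1+), and in the normal sorts 574 (Dclk1-) and 86216 (Dclk1+). Of the 18, 14 and 17 were above background in the tumor sorts and 15 and 18 in the normal sorts. Both Dclk1+ samples were above both Dclk1- samples. Values without a sample name are given here and below in the order tumor Dclk1-, tumor Dclk1+, normal Dclk1-, normal Dclk1+. Dclk1 itself was at 9.49, 61.8, 180 and 736, so it was higher in Dclk1+ within each tissue. Its log2 difference was 0.69 in tumor, under 2-fold, and 1.41 in normal. The Dclk1- normal sample stood above the Dclk1+ tumor sample. In bulk samples, fewer cells of a type and less RNA per cell cannot be told apart. The summed intensity of 9 enterocyte genes was 16655, 6158, 74272 and 22452, and that of 7 goblet cell genes was 43466, 22891, 181171 and 8040. Vil1 made up most of the enterocyte sum in both Dclk1+ samples, at 1682, 3674, 12106 and 19096. It was not lower in Dclk1+ cells, with log2 differences of 0.76 in tumor and 0.05 in normal.

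Most channel genes were dim or level between the sorted cells, and a small number stood far apart. Above background were 63 (55.3%), 72 (63.2%), 68 (59.6%) and 74 (64.9%) of the 114 channel genes. Over all named genes the shares were 66.6%, 70.6%, 71.4% and 73.7%. In all, 60 channel genes were above background on the 4 arrays, 34 on none and the other 20 on 1 to 3 arrays. On at least 1 array, 80 of the 114 channel genes were above background, against 13467 of the 16390 named genes. In tumor, 3 of the 73 channel genes above background on either array were at least 2-fold higher in Dclk1+ cells (Kcnj16, Kcnmb4 and Kcnh2), or 4.11%, against 1.77% of all genes. In the other direction 2 were at least 2-fold lower (Clcn3 and Cacna2d1), or 2.74%, against 2.14% of all genes. The gap between the shares of higher genes depended on the processing. With the local background subtracted it was 2.74% against 3.28%. Plain subtraction of the blank mean gave 5.48% against 4.83%, and an offset of 16 gave 5.48% against 3.34%. Scaling by the median or the 75th percentile left 4.11%, against 1.17% and 1.56%. In normal epithelium, 2 of 77 were higher (Kcnj16 and Kcnmb4) and 2 were lower (Clcn2 and Kcne3), or 2.60% each way, against 5.66% and 5.92% of all genes. At 4-fold, Kcnj16 was the 1 channel gene higher in tumor (0.426% of all genes), none was lower (0.295%), Kcnj16 and Kcnmb4 were higher in normal (1.61%) and Clcn2 was lower (2.16%). The median log2 difference of the channel genes was 0.04 in tumor and 0.02 in normal, and 0.01 over all genes in both. In tumor, 64 of 73 channel genes (87.7%) lay within 0.5 of 0, against 84.6% of all genes. In normal epithelium 69 of 77 did (89.6%), against 75.5% of all genes.

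**Figure D1:**
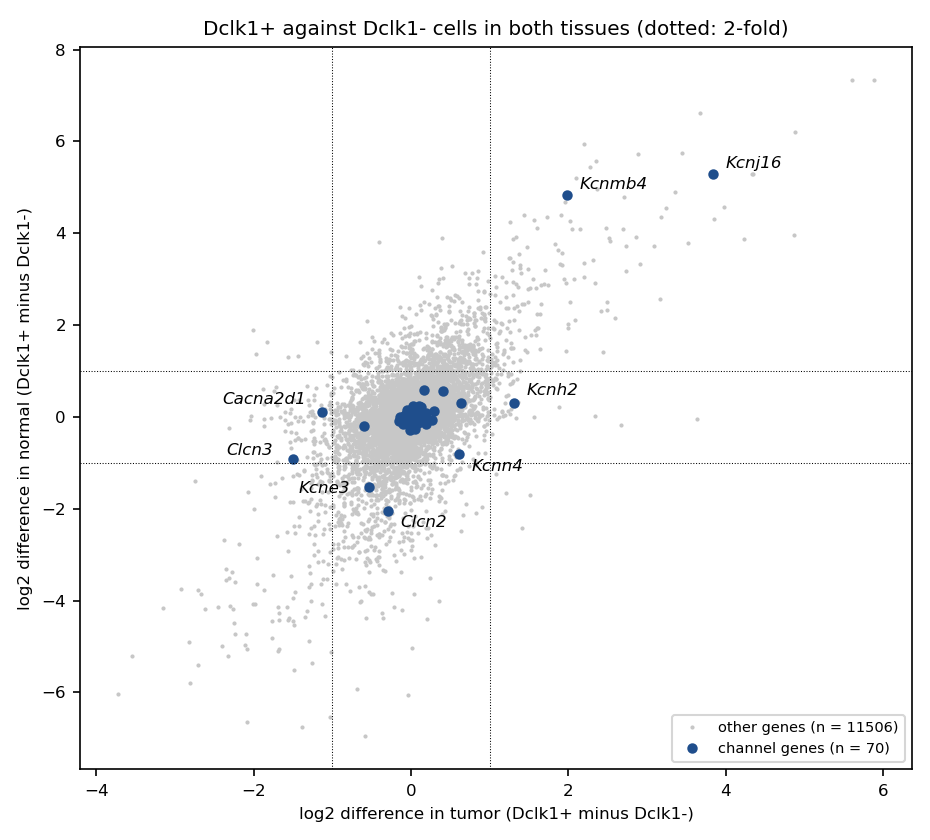
Log2 difference between Dclk1+ and Dclk1- cells in tumor (horizontal axis) against that in normal epithelium (vertical axis), for genes above background on at least 1 array of each pair: 70 channel genes in colour over 11506 other genes in grey. Each point is 1 gene from 1 array per group, without error bars. Kcnj16 and Kcnmb4 lie at the upper right, while most channel genes lie near 0 on both axes.

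Kcnj16 and Kcnmb4 were the 2 channel genes at least 2-fold higher in Dclk1+ cells in both tissues. Kcnmb4 encodes a beta subunit of the large-conductance calcium-activated potassium (BK) channel, which slows its gating. Kcnj16 encodes an inward rectifier subunit that makes no current alone and joins Kcnj10 or Kcnj15 in channels sensitive to internal pH. Because both genes were high in the same sorts, the sequence before their RefSeq start sites (GRCm38.p6) is shown. It covers 250 bases, 5′ to 3′ on the gene's strand, with CG dinucleotides in capitals. The window is chr10:116473524-116473773, minus strand, for Kcnmb4 and chr11:110967783-110968032, plus strand, for Kcnj16, whose most upstream start of 4 is used.
Kcnmb4: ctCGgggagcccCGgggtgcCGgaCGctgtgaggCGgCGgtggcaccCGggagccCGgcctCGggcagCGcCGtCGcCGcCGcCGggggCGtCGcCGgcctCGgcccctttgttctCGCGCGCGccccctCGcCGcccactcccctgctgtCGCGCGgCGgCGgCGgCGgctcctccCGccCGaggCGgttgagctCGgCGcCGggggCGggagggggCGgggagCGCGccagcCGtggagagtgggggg
Kcnj16: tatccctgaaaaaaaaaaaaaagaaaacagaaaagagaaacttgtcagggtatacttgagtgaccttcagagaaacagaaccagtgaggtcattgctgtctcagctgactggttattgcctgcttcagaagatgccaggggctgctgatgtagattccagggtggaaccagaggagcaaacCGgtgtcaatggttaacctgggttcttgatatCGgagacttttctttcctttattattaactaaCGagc
The Kcnmb4 window held 43 CG and was 83.6% G or C. The Kcnj16 window held 3 CG and was 42.8% G or C, and the windows before its other starts held 7, 4 and 1 CG. Over 32851 RefSeq windows the median was 6 CG, with quartiles at 2 and 16, and 92.1% held at least 1. The octamer ATGCAAAT, a motif bound by POU factors such as Pou2f3 of tuft cells, was searched on both strands (ATTTGCAT on the other) in windows of 300 bases that add the first bases after the start. It was in 570 of 32851 windows (1.74%), in 1 of the 125 windows of the 89 channel genes matched (Kcnab2), and in none of the Kcnmb4 and Kcnj16 windows.

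In tumor the normalised intensity of Kcnj16 was 4.32 in Dclk1- and 957 in Dclk1+ cells, and in normal epithelium it was 9.61 and 4048. Both Dclk1+ samples were bright and both Dclk1- samples were close to the lowest listed values. Kcnj16 was higher in Dclk1+ cells by 3.83 (log2) in tumor and 5.29 in normal, and the ratios of the deposited intensities were 221 and 421. The local background around its spot was also high where the spot was bright, at 617 for a spot of 652 in Dclk1+ tumor and 970 for a spot of 2426 in Dclk1+ normal, against 20.8 for 27.3 and 25.2 for 29.3 in Dclk1- tumor and normal. With the local background subtracted, the tumor difference was 0.62 and no longer reached 2-fold, and the normal difference was 4.05.

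Kcnmb4 had a normalised intensity of 20.5 in tumor Dclk1- cells and 304 in tumor Dclk1+ cells. In normal epithelium it was at 2438 in Dclk1+ cells, and it was neither listed nor above background in Dclk1- cells. Both Dclk1+ samples were thus above both Dclk1- samples, the normal one highest. It was higher in Dclk1+ tumor cells by 1.98 (log2), with a ratio of deposited intensities of 14.8. On the normalised log2 scale, its signal in normal Dclk1+ cells was higher by at least 26.5-fold. This bound sets the dim spot at the lowest signal above background on that array. The offset makes the bound smaller, so it cannot be set beside the tumor ratio of 14.8. The measured log2 values were 10.50 and 5.67. They were apart by 4.82, and by 3.86 to 10.12 under the alternative settings, so the normal difference has no exact size. The local background around its spot was 23.1, 77.0, 16.7 and 250. Over 7 alternative settings, the lowest tumor difference was 1.55.

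The partners and relatives of these subunits were dim. The probes of Kcnma1, the BK pore, and of Kcnmb2, another BK beta subunit, were above background on none of the 4 arrays, and Kcnma1 was listed on none. Kcnmb1, the smooth muscle beta subunit, was at 10.7, 19.1, 18.4 and 22.1, a difference of 0.10 in tumor and 0.03 in normal. Neither Kcnj10 nor Kcnj15, the subunits that pair with Kcnj16, was above background on any array. A probe at background gives no more than a bound on its own signal and does not show that the RNA was absent. The tuft cell list moved with Kcnj16 and Kcnmb4: its median log2 difference was 2.19 in tumor and 3.86 in normal, with 10 and 13 of its genes at least 2-fold higher and none lower. The part of these cells in the channel values was not tested.

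**Figure D2:**
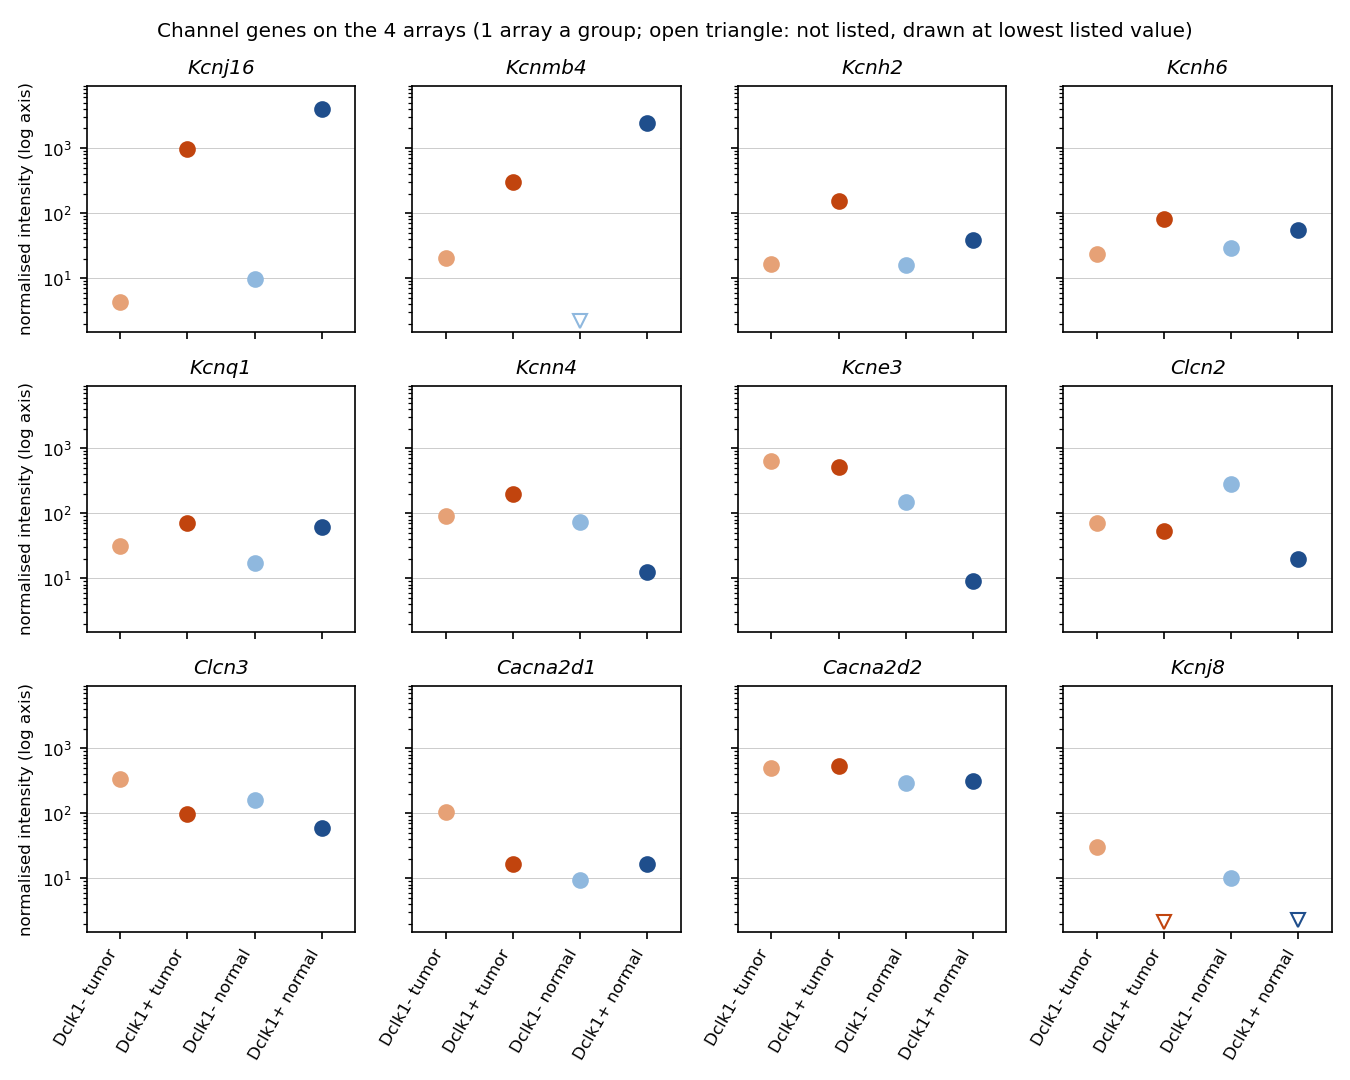
Normalised intensity (log axis) of the channel genes at least 2-fold apart in any comparison on each of the 4 arrays, with 1 point per array and no error bars, since each group had 1 array. Kcnh6, Kcnq1, Cacna2d2 and Kcnj8 are added, and open triangles stand for probes not listed, drawn at the array's lowest listed value. Kcnj16 and Kcnmb4 are bright in both Dclk1+ samples, and Kcne3 and Clcn2 are lowest in Dclk1+ normal.

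Of the voltage-gated potassium channel alpha subunits, Kcnh2 alone was at least 2-fold higher in the Dclk1+ cells of tumors, and none was in normal epithelium. Kcnh2 encodes the ERG channel, best known for repolarising the heart. Its normalised intensity in tumor was 16.4 (Dclk1-) and 156 (Dclk1+), and in normal epithelium 15.7 and 38.3. The Dclk1+ tumor sample was the highest of the 4, the Dclk1+ normal sample came next, and both Dclk1- samples were level. The difference was 1.31 in tumor (ratio 9.51) and 0.31 in normal (ratio 2.44), and it was 0.70 in tumor with the local background subtracted, which is under 2-fold. Kcnh6, the ERG-like relative named here after its values were seen, stood at 23.8, 80.7, 29.2 and 55.3, a difference of 0.64 in tumor and 0.30 in normal. Kcnq1, the pore that Kcne3 joins, also named after its values were seen, stood at 31.1, 70.4, 17.1 and 61.9, a difference of 0.41 and 0.56. For both genes, each Dclk1+ sample lay above each Dclk1- sample, with log2 differences under 2-fold. Of the 31 alpha subunits of this family, 23 were above background on at least 1 array and 16 on all 4. The differences ran from -0.10 to 1.31 in tumor and from -0.15 to 0.60 in normal.

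Kcne3 and Clcn2 were at least 2-fold lower in the Dclk1+ cells of normal epithelium. Kcne3 encodes a subunit that holds Kcnq1 open in crypt cells and supports chloride secretion. Its normalised intensity was 629 and 520 in the Dclk1- and Dclk1+ cells of tumors, and 148 and 8.94 in those of normal epithelium. The tumor samples were both bright and close to each other, while Dclk1+ normal lay far below the rest. The difference between Dclk1+ and Dclk1- was -0.53 in tumor and -1.52 in normal, where the deposited intensity was 16.5-fold lower, and -0.78 in normal with the local background subtracted. Clcn2, a chloride channel of the epithelium, was at 70.4, 52.5, 286 and 20.0. It was highest in Dclk1- normal and lowest in Dclk1+ normal. Its difference was -2.04 in normal, with the deposited intensity 14.3-fold lower, and -0.29 in tumor. In normal epithelium the enterocyte, goblet and enteroendocrine lists were also lower in Dclk1+ than in Dclk1- cells. The median log2 difference was -4.15 for the 9 enterocyte genes, -5.36 for the 7 goblet genes and -1.23 for the 16 enteroendocrine genes above background. The part of these cells in Kcne3 and Clcn2 was not tested.

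Clcn3 and Cacna2d1 were at least 2-fold lower in the Dclk1+ cells of tumors. Clcn3 encodes a chloride-proton exchanger of endosomes, and its normalised intensity was 341 and 97.2 in the Dclk1- and Dclk1+ cells of tumors, and 162 and 59.3 in those of normal epithelium. Each Dclk1- sample lay above both Dclk1+ samples. The difference was -1.50 in tumor (3.51-fold lower) and -0.93 in normal (2.72-fold lower), the latter short of 2-fold on the normalised log2 scale. Cacna2d1, an alpha2delta subunit that brings calcium channels to the membrane, was at 105, 16.6, 9.33 and 16.4. The Dclk1- tumor sample stood apart and the other 3 were at a similar dim level. Its difference was -1.13 in tumor (6.31-fold lower) and 0.10 in normal, and -0.52 in tumor with the local background subtracted. The summed intensity of 11 fibroblast and smooth muscle genes was 383, 232, 46.9 and 60.2, with 7, 8, 5 and 5 of them above background. By log2 difference none of the 8 tested in tumor was at least 2-fold apart, with a median of -0.12. In deposited intensity, Dcn (43.6, 6.35, 2.54 and 2.30) was 6.86-fold lower in Dclk1+ tumor cells and Col3a1 (64.0, 21.4, 12.3 and 14.3) 2.99-fold lower. Acta2, Col1a2 and Pdgfra were 1.61-fold, 1.25-fold and 1.09-fold lower, while the ratios were 1.17 for Lum and 1.38 for Myh11. Col1a1 was not listed in Dclk1- tumor cells. Of the smooth muscle genes, Acta2 was at 191 and 119 in the tumor sorts and not listed in the normal sorts, Myh11 was above background on all 4 arrays, and Cnn1 and Tagln were listed on none. Other lists were lower in Dclk1+ tumor cells, as Clcn3 and Cacna2d1 were: the median was -1.57 for enterocyte genes (5 of 9 at least 2-fold lower), -1.26 for goblet genes (4 of 7), -1.32 for Paneth genes (3 of 4) and -0.78 for myeloid genes (2 of 7). The part of these cells in Clcn3 and Cacna2d1 was not tested. Cacna2d2, a relative of Cacna2d1, was at 500, 539, 292 and 317, with a difference of -0.15 in tumor and -0.09 in normal. The sign of both differences turned with the local background subtracted, to 2.15 in tumor and 0.31 in normal. In Dclk1- tumor its spot of 529 stood in a local background of 524, and in Dclk1+ tumor a spot of 377 stood in 201.

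Few channel genes were above background in 1 kind of sort and not in the other. Of the 80 channel genes above background on at least 1 array, 4 were above background on both Dclk1+ arrays and neither Dclk1- array (Kcnd1, Kcnj3, Kcnq5 and Kcns3), a pattern that 290 of 13467 named genes showed (2.15%). All 4 were dim, with values from 2.89 to 14.6 on the Dclk1+ arrays, and these genes and Kcnj8 were singled out after their values were seen. The converse pattern held for 1 channel gene, Kcnj8, and for 125 of the named genes (0.928%). Kcnj8 encodes the pore of an ATP-sensitive potassium channel of vessel walls. It was at 30.3 in Dclk1- tumor and 9.95 in Dclk1- normal, and not listed on either Dclk1+ array. On the normalised log2 scale it was at least 1.45-fold and 1.10-fold lower there, bounds that the offset makes smaller. The log2 differences were -0.60 in tumor and -0.19 in normal. Under the alternative settings they ran from -3.82 to -0.24 and from -2.12 to 0.00. Of 5 endothelial genes, Kdr (10.4, 7.87, 35.3 and 29.9) and Vwf (5.75, 9.95, 8.35 and 12.2) were above background on all 4 arrays, Tek was on 1, and Pecam1 and Cdh5 were listed on none. Their part in Kcnj8 was not tested.

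By log2 difference the remaining families were close to level between Dclk1+ and Dclk1- cells. The offset makes differences of their dim probes smaller, and ratios of the deposited intensities spread wider. For 2-pore potassium channels listed on both arrays, these ratios ran from 0.561 (Kcnk10) to 2.76 (Kcnk5) in tumor. In normal they ran from 0.737 (Kcnk3) to 2.27 (Kcnk18). For the inward rectifier Kcnj9 the ratio in tumor was 2.07. Such ratios also carry the factor of each array. All 12 of the 2-pore potassium channels, which carry background current, were above background on at least 1 array and 10 on all 4, with differences from -0.14 to 0.29 in tumor and from -0.15 to 0.16 in normal. Of the 9 sodium channel genes, 4 were above background on at least 1 array, and differences ran from -0.04 to 0.09 and from -0.13 to 0.02. Of the 9 calcium channel pores, 6 were above background on at least 1 array, with differences from -0.02 to 0.27 and from -0.29 to 0.20. The T-type pores Cacna1g and Cacna1h were at 17.9, 28.6, 32.5 and 34.3 and at 37.6, 66.4, 12.5 and 9.82. Of the sodium channel genes, Scn4a of skeletal muscle was at 9.49, 16.6, 17.4 and 20.3 and the neuronal Scn8a at 5.65, 9.72, 10.1 and 7.13. Of the 2-pore channels, Kcnk1 stood at 23.7, 42.1, 31.0 and 40.1 and the acid-sensitive Kcnk3 at 35.0, 55.7, 30.4 and 22.4. The delayed rectifier pores Kcna1 (51.5, 73.8, 79.3 and 84.8) and Kcna7 (45.7, 59.4, 57.3 and 58.1), the auxiliary subunit Kcnab2 (24.2, 36.0, 24.0 and 44.1) and the inward rectifier Kcnj9 (log2 differences of 0.16 in tumor and 0.03 in normal) had log2 differences within 0.5 of 0 in both tissues. Of the 12 inward rectifiers, 6 were above background on at least 1 array, and of the 11 auxiliary subunits of voltage-gated potassium channels 7 were. The calcium- and sodium-activated potassium channels had 7 of 11 above background on at least 1 array, the calcium channel auxiliary subunits 10 of 13 and the chloride channels and exchangers 5 of 6. The 2-pore, sodium channel, calcium channel pore, inward rectifier and potassium auxiliary families were also compared by log2 difference. Only Kcnj16 and Kcne3 among them were at least 2-fold apart between Dclk1+ and Dclk1- cells.

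**Figure D3:**
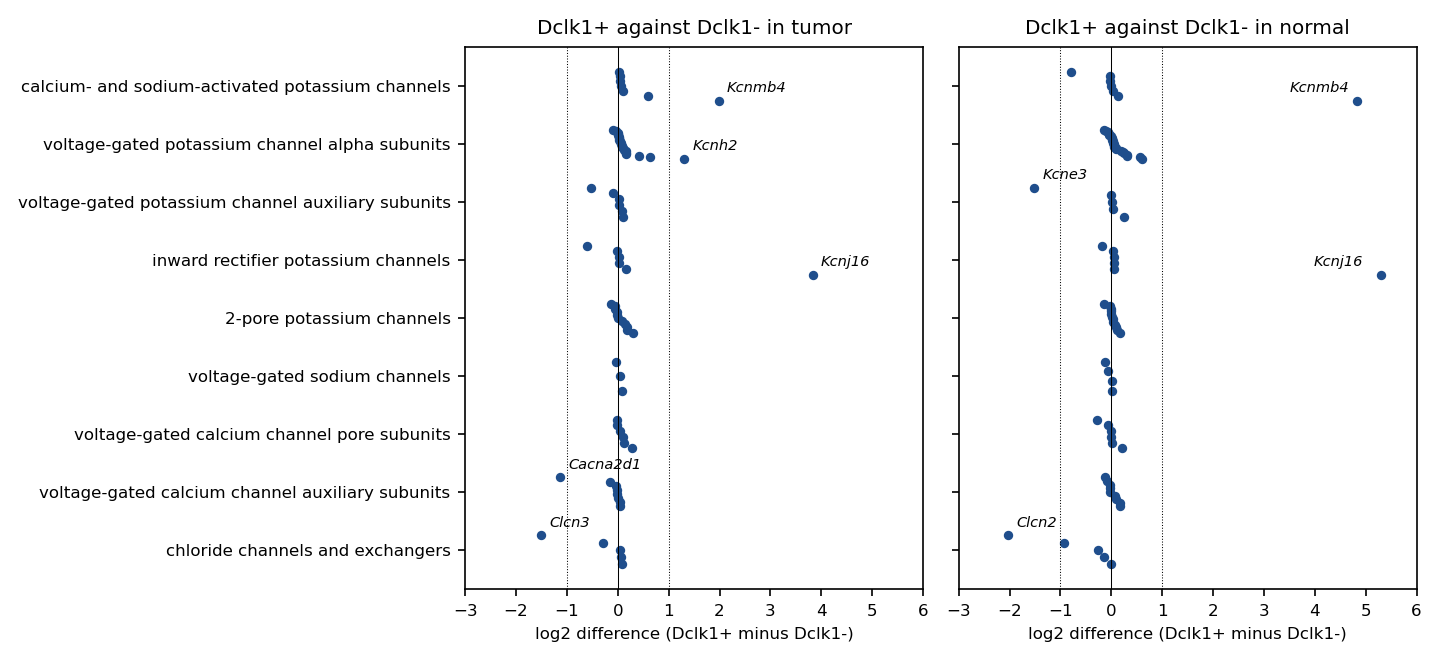
Log2 difference between Dclk1+ and Dclk1- cells for the channel genes above background on either array, by family, in tumor and in normal epithelium. Each point is 1 gene, without error bars, and dotted lines mark a 2-fold difference. The points outside the lines are the 7 genes Kcnj16, Kcnmb4, Kcnh2, Clcn3, Cacna2d1, Clcn2 and Kcne3.

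Tumor and normal cells were then compared within each sort. These comparisons share their arrays with those above. Between Dclk1+ tumor and Dclk1+ normal cells, 3 of 77 channel genes were at least 2-fold higher in tumor (Kcne3, Kcnn4 and Kcnh2), or 3.90%, against 4.27% of all genes. A further 2 were lower (Kcnmb4 and Kcnj16), or 2.60%, against 4.20% of all genes. Kcne3 was higher in tumor by 2.93, with a ratio of deposited intensities of 58.2. Kcnn4, the intermediate-conductance calcium-activated potassium channel that drives chloride secretion, was at 91.0, 197, 72.2 and 12.5. Dclk1+ tumor was the highest array and Dclk1+ normal the lowest, a difference of 1.70 between them. Kcnh2 was higher by 1.09, and by 0.66 with the local background subtracted. Kcnmb4 was lower in tumor by 2.37 and Kcnj16 by 1.52, on 8.03-fold and 4.23-fold lower deposited intensities. At 4-fold, Kcne3 was higher (1.17% of all genes) and Kcnmb4 lower (0.427%). The tuft cell list was lower in Dclk1+ tumor too, by a median of -1.45, with 10 of its 18 genes at least 2-fold lower and 1 higher, and its part in these values was not tested.

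Between Dclk1- tumor and Dclk1- normal cells, 3 of 70 channel genes were at least 2-fold higher in tumor (Kcne3, Cacna2d1 and Clcn3), or 4.29%, against 5.84% of all genes. Clcn2 was the 1 lower gene, or 1.43%, against 5.27% of all genes. No channel gene was 4-fold higher (1.18% of all genes) or lower (1.30%). Kcne3 was higher by 1.94, Cacna2d1 by 1.27 and Clcn3 by 1.01, while Clcn2 was lower by 1.27. With the local background subtracted, Cacna2d1 was higher by 0.57 and Clcn2 lower by 0.93, both under 2-fold. Kcne3 was thus the 1 channel gene at least 2-fold higher in tumor in both sorts, as the normalised intensities of 629 and 520 against 148 and 8.94 show. The Paneth cell list was higher in tumor in both sorts as well, with a median log2 difference of 3.78 in Dclk1+ and 1.72 in Dclk1- cells over 4 genes. In Dclk1- cells, myeloid genes were higher in tumor (median 1.05, 5 of 7 at least 2-fold), as Clcn3 and Cacna2d1 were. Lower there, as Clcn2 was, were the enterocyte genes (-2.03, 7 of 9), enteroendocrine genes (-1.80, 10 of 16) and goblet genes (-1.71, 4 of 7). The part of these cells in the channel values was not tested.

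The other ion transport genes of the tuft cell and epithelial pathways were described from a list of 76 names, and 63 genes of the list were on the array. The list also held Ano1 under its older symbol Tmem16a, and that gene was counted on the array as Ano1 alone. In tumor, 2 of the 48 above background on either array were at least 2-fold higher in Dclk1+ cells and 2 were lower, or 4.17% each way, against 1.77% and 2.14% of all genes. In normal epithelium the counts were 4 higher and 4 lower of 52, or 7.69% each way, against 5.66% and 5.92% of all genes. Trpm5, the cation channel that depolarises tuft cells and a member of the tuft cell list as well, was at 14.8, 2343, 76.2 and 13231, higher in Dclk1+ cells by 4.88 in tumor and 6.21 in normal. Clic6, a chloride intracellular channel protein, was at 56.3, 262, 11.8 and 523, higher by 1.30 and 2.66. For both genes each Dclk1+ sample lay above each Dclk1- sample. Atp2a3, a pump that returns calcium to the endoplasmic reticulum, was at 6.90, 79.2, 32.2 and 541, higher by 0.94 in tumor and 2.38 in normal. Scnn1a, the alpha subunit of the epithelial sodium channel, was not listed in tumor Dclk1- cells and was at 12.9, 3.86 and 94.5 in the other samples, higher by 1.09 in normal.

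On the lower side, Clca1, a goblet cell protein that modulates chloride channels, was at 260, 74.5, 24890 and 229, and differed by -1.38 in tumor and -6.76 in normal on the brightest of its 3 probes. The bicarbonate transporter Slc4a4 was at 138, 39.4, 165 and 9.37 and differed by -1.05 and -1.63. For both genes each Dclk1- sample lay above each Dclk1+ sample. The calcium-activated cation channel Trpm4 was at 363, 389, 1157 and 131, with a difference of -2.73 in normal and -0.15 in tumor. The anion exchanger Slc26a6 was at 44.1, 32.0, 246 and 7.08, with a difference of -2.10 in normal and -0.24 in tumor. Across the alternative settings each of these differences of at least 2-fold kept its direction, but the smallest values were 0.43 for Clic6 and -0.26 for Clca1 in tumor, and 0.52 for Scnn1a and -0.53 for Slc26a6 in normal, all under 2-fold.

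**Figure D4:**
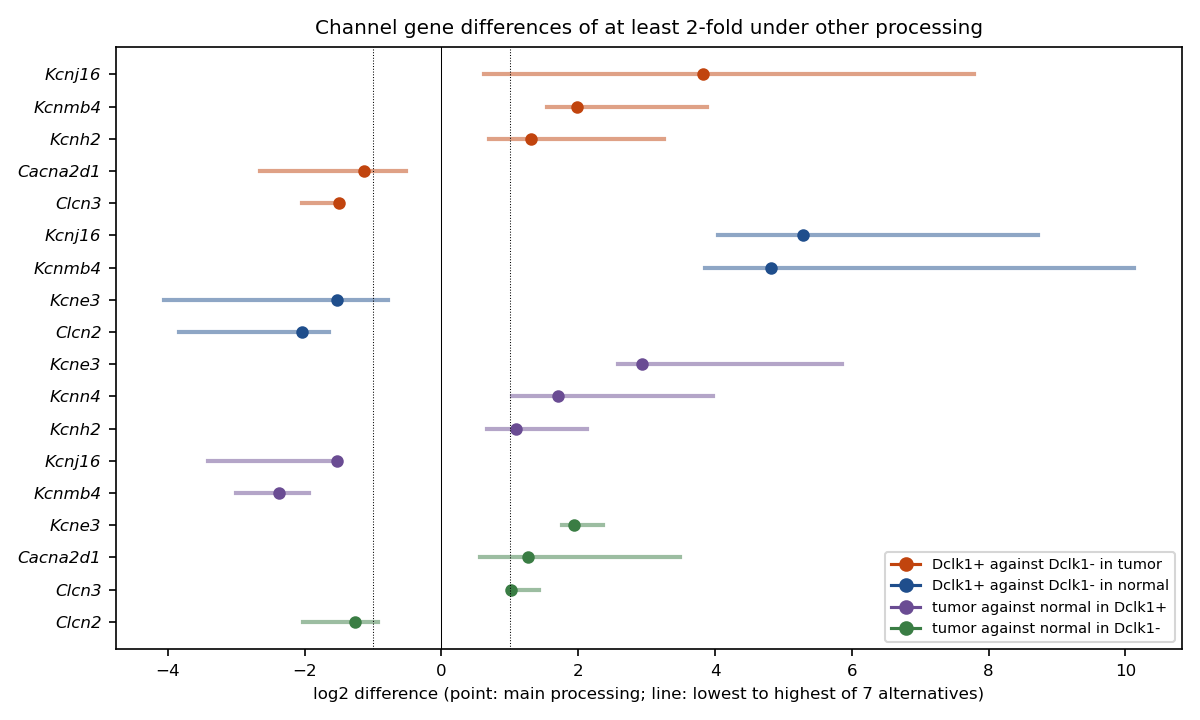
Log2 difference of the channel genes at least 2-fold apart in any comparison, with the main value as a point and the lowest to highest value over 7 alternative settings as a line and dotted lines at 2-fold. Each value comes from 1 array per group, and Kcnmb4 was not above background in Dclk1- normal, so its values there have no exact size. The line for Kcnj16 in tumor runs from 0.62 to 7.79 and that for Clcn3 in tumor from -2.04 to -1.50.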

How the data were processed

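Spot intensities were read from the scanner files of 4 one-colour arrays (Cy5, read at 635 nm). Per the file headers, these are medians of spot and local background intensity joined from scans at 3 gains. The authors' deposited table holds normalised intensities, shown by a straight line against the scanner values to have had a constant near the blank spots' mean subtracted (20.4 to 23.0) and a factor applied. Local background was not subtracted, as it followed the spot (correlation of logs 0.921 to 0.979). Background was corrected with normexp (limma 3.58.1, R 4.3.3, offset 50), control spots and 4 flagged spots were dropped, and quantile normalization over the 4 arrays gave log2 values. The procedure was tested on simulated data, with changes put on bright spots alone, so that test does not cover dim probes. Probes were named from the platform table with GRCm38.p6 symbols, and 6842 of 23473 probes are unnamed here. No source used here gives the build of the array's design. Probes can bind RNA of related channel genes. The number of arrays limits the precision.

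Genes were named when at least 2-fold apart in any of 4 comparisons, or the 2 brightest of a family. Members, lists and settings were chosen with earlier results of these data known, and the CG count was chosen after values were seen. Alternatives were an offset of 16, plain subtraction of the blank mean with a floor of 16, subtraction of the local background, scaling by the 75th percentile and by the median, the authors' values, the mean over probes, 3 SD over blanks, no filter and a 4-fold threshold.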

Additional observations from a re-analysis of the deposited data

Results flagged for a closer look

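Of the channel genes at least 2-fold apart in any comparison, 4 had effects of opposite sign in the 2 groups set side by side, with effects at least 2-fold apart. With 1 array in each group none of these differences was tested. For Kcnmb4 the tumor-to-normal difference was -2.37 in Dclk1+ cells. In Dclk1- cells its signal was higher in tumor by at least 1.30-fold, a bound, because the probe was not above background in Dclk1- normal. The measured values there were apart by 0.48, from 0.21 to 3.22 under the alternative settings, so the gap of -2.85 between the sorts has no exact size. Clcn2 differed between tumor and normal by 0.49 in Dclk1+ and by -1.27 in Dclk1- cells, apart by 1.75. Kcnn4 differed between Dclk1+ and Dclk1- cells by 0.60 in tumor and by -0.80 in normal, apart by 1.41, though the tumor difference was -0.16 with the local background subtracted. Cacna2d1 differed between Dclk1+ and Dclk1- cells by -1.13 in tumor and by 0.10 in normal, apart by -1.23. The small normal difference was -0.02 to 0.82 under the alternative settings.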

How the results depend on the processing

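The 18 differences of at least 2-fold among the channel genes kept their direction under 7 alternative settings, of which the mean over probes cannot change a gene with 1 probe. Of 126 alternative values, 119 stayed at least 2-fold apart and 7 did not, all 7 with the local background subtracted. The counts were 3 higher and 2 lower in Dclk1+ against Dclk1- tumor, 2 and 2 in normal, 3 and 2 for tumor over normal in Dclk1+ cells, and 3 and 1 in Dclk1- cells. With the authors' values, whose scaling puts the median of all genes at 0.35, 0.27, -0.40 and -0.50, they were 15 higher in tumor, 14 higher and 8 lower in normal, 7 higher and 19 lower in Dclk1+, and 7 higher and 16 lower in Dclk1-. In the same order, these were 20.5%, 18.2%, 10.4%, 9.09%, 24.7%, 10.0% and 22.9% of the channel genes tested, against 18.2%, 23.3%, 16.0%, 13.5%, 27.2%, 14.6% and 29.2% of all genes. Plain subtraction gave 4 higher and 4 lower in normal, 6 higher in Dclk1+, and 5 higher and 2 lower in Dclk1-, against 10.3%, 10.2%, 8.52%, 11.2% and 10.4% of all genes. An offset of 16 gave 4 lower in normal, against 8.80% of all genes. With the local background subtracted, 1 was lower in tumor, 1 in normal and 0 in tumor against normal Dclk1- (3.05%, 4.44% and 5.45% of all genes). The 2 higher in tumor (2.74%, against 3.28% of all genes) were then Kcnmb4 and Cacna2d2 (2.15), without Kcnj16 and Kcnh2. The 3 higher in tumor over normal Dclk1+ cells (3.90%, against 3.86% of all genes) were Kcne3, Kcnn4 and Cacna2d2, without Kcnh2. At 4-fold, 1 was higher and 0 lower in tumor, 1 lower in normal, 1 higher and 1 lower in Dclk1+, and 0 and 0 in Dclk1-. The cause of these moves was not tested. With 3 SD over the blanks, no filter, or scaling by the median or the 75th percentile, each count stayed within 1.5 times. No paired analysis was possible because each group had 1 array. Leaving out an array was not possible for the same reason. Depth is unknown for arrays: 34 of 114 channel genes were not above background on any array, and differences among them were not measurable.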

Other observations

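Between tumor and normal cells, 3 other ion transport genes of the list of 76 were at least 2-fold apart in the same direction in both sorts. Slc12a2, the basolateral sodium-potassium-chloride cotransporter, was higher in tumor by 1.67 in Dclk1+ cells and by 1.94 in Dclk1- cells. Atp1b1, the beta subunit of the sodium pump, was lower by 1.99 and by 1.75, and the potassium-chloride cotransporter Slc12a7 was lower by 1.36 and by 1.26. In Dclk1+ cells, 2 of 51 genes above background (3.92%) were at least 2-fold higher in tumor and 5 (9.80%) were lower, against 4.27% and 4.20% of all genes. In Dclk1- cells 1 of 49 (2.04%) was higher and 6 (12.2%) were lower, against 5.84% and 5.27% of all genes. The calcium pump Atp2a3 was lower in tumor by 1.81 in Dclk1+ cells. Trpm4 differed by 1.27 in Dclk1+ cells and by -1.31 in Dclk1- cells, and the difference between the sorts was not tested. With the local background subtracted, Slc12a7 was lower by 0.75 and 0.21 and Trpm4 was higher in Dclk1+ tumor cells by 0.59, all under 2-fold.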
